A study of Drosophila melanogaster with 2 samples.

Results

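The proteasome subunit genes of the fly were compared between 2 libraries of polyadenylated RNA from whole Drosophila melanogaster embryos. Members were all genes whose symbol begins with Prosalpha, Prosbeta, Pros and a digit, Rpn or Rpt, which took 47 of the 17301 genes. Of these, 4 carry the suffix T, and 11 carry the suffix R and a number or R alone. The other 32 are the genes of the standard particle, called single-copy here because their symbols lack such a suffix. The name does not mean that no related gene exists. Among the 32, 11 have a T or R paralog, and Prosalpha1 has an almost identical copy that the rule does not take. The rule goes by symbol and uses no measured value, though it was set with earlier results of these data known. Both libraries came from pooled embryos aged 0 to 16 h, from flies kept at 25 °C. Every embryo carried the GAL4 driver P{en2.4-GAL4}e22c, and the labels give P{tGPH}4 in both genotypes, with y1 w* or y1 w*/y1 v1. The library labelled knockdown also carried P{TRiP.JF02125}attP2, an RNA interference transgene against Lim3, a LIM-homeodomain factor of motor neurons. The control library carried P{y+t7.7=CaryP}attP2 at that landing site and no interference construct. Lim3 itself went against the label: its level was 18.5 FPKM with the interference transgene and 5.81 FPKM without it, 3.17-fold higher, so the wording "library labelled knockdown" is kept for the first. The labels do not say in which embryonic cells the driver acts.

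The proteasome is the protease complex that degrades proteins marked with ubiquitin in all eukaryotic cells. Its 20S core is a barrel of stacked rings. The outer rings of alpha subunits form the gate and the inner rings of beta subunits hold the proteolytic sites. The 19S regulatory particle sits on the barrel: a base of Rpt ATPases and Rpn scaffolds and receptors unfolds the substrate, and a lid of Rpn subunits removes the ubiquitin chain. In flies, several subunits have a second gene that is transcribed mainly in the testis, and early embryos inherit much subunit mRNA from the mother.

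FPKM is the number of fragments scaled to transcript length and to all mapped fragments, so levels of genes of different length can be set side by side. Transcript values were summed per gene, and differences are log2 of (labelled knockdown + 1) over (control + 1). Each group is a single library, so the differences have no replicate check and carry no p-values. The libraries held about 37800000 and 29100000 fragments in transcripts of 400 nt or more, as estimated from the smallest steps in the values. The intervals beside folds are exact binomial 95% intervals on those estimated fragments and cover counting error only. In pooled embryos, fewer cells of a type and less RNA per cell cannot be told apart. Values in pairs are given with the library labelled knockdown first.

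All 32 single-copy subunit genes were lower in the library labelled knockdown. Their summed level was 5082 and 6812 FPKM, a log2 ratio of -0.42 or 1.34-fold lower (1.33 to 1.35). Their median log2 difference was -0.34, against -0.04 over the 10576 genes that reached 1 FPKM in at least 1 library, of which 56.5% were below 0. For 30 of the 32, the counting interval of the ratio lay below 1. The differences were small: none of the 33 members that could be compared reached a log2 difference of 1 in either direction, a size that 2.39% of all tested genes reached, 1.02% upwards and 1.37% downwards. Of the 32 genes, 19 were at least 1.2-fold lower and none that much higher, a limit set after the values were seen. Of all tested genes 20.9% were that much lower and 12% that much higher, and of those at a mean of 100 FPKM or more 36.6% were lower. The order of levels hardly differed between libraries (Spearman's rho 0.99 over 32 genes, which share both libraries). Among the 32, 13 share between 1 and 264 exonic bases with a gene on the opposite strand, the most in Rpn9, and it is not known whether counting used strand.

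The core and the regulatory particle differed in the size of the difference, and with transcripts summed per gene their ranges did not overlap. The 14 core genes ran from -0.71 (Prosalpha1) to -0.42 (Prosalpha6), with a median of -0.54, and all 14 were at least 1.2-fold lower. The 18 regulatory particle genes ran from -0.38 (Rpn12) to -0.02 (Rpt5), with a median of -0.18, and 5 of 18 (27.8%) were at least 1.2-fold lower. That share lies between the 20.9% of all tested genes and the 36.6% of those at a mean of 100 FPKM or more. Summed over its genes, the core stood at 3084 and 4487 FPKM, 1.46-fold lower (1.44 to 1.47). The regulatory particle summed to 1998 and 2324 FPKM, 1.16-fold lower (1.15 to 1.17). Summed core mRNA was thus 1.54 times summed regulatory particle mRNA in the library labelled knockdown and 1.93 times in the control library, a comparison into which no scaling between libraries enters. With the most abundant transcript of each gene alone, 1 regulatory particle gene, Rpn13, moved to -0.68, below all 14 core genes, so that the ranges overlap. Of the other 17 the lowest was Rpn12 at -0.38, above the highest core gene, Prosalpha3 at -0.46.

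**Figure D1:**
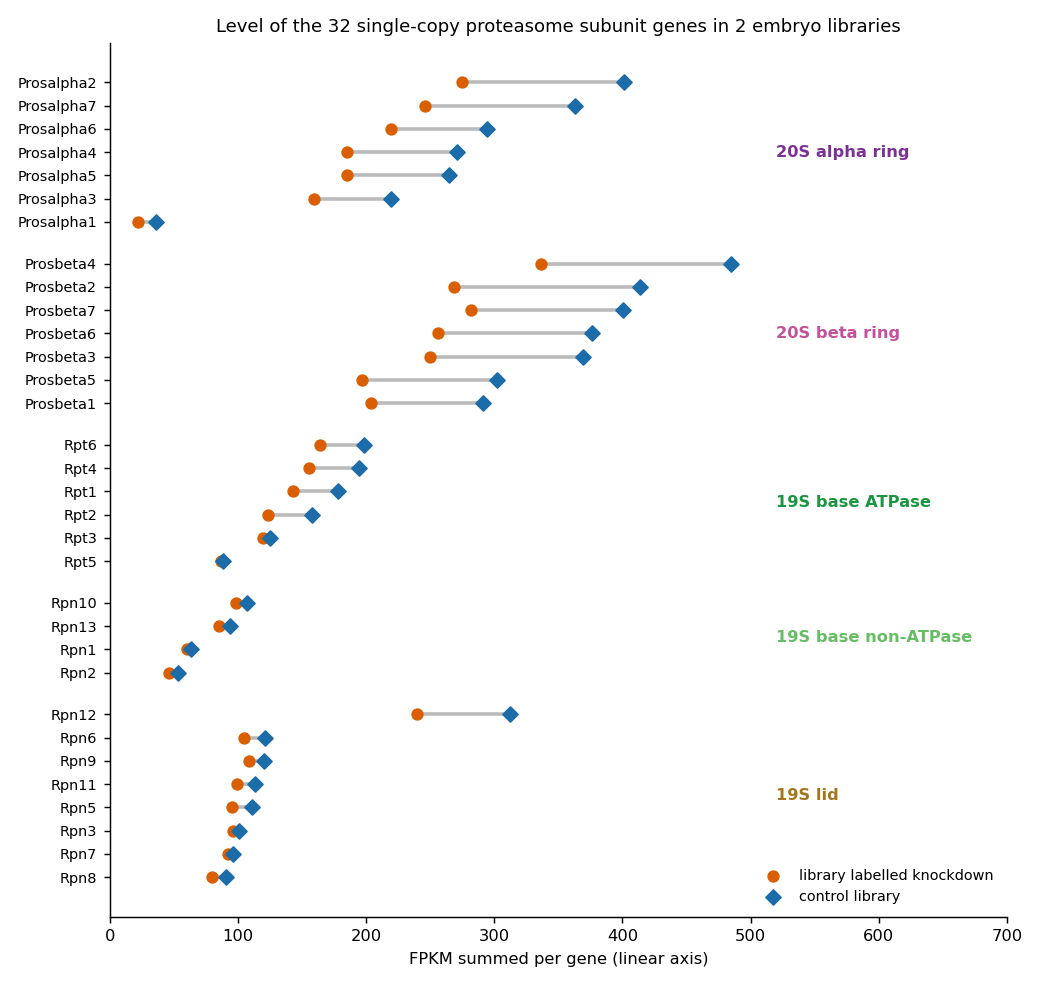
Level of each of the 32 single-copy subunit genes in FPKM (linear axis) in the library labelled knockdown (circles) and the control library (diamonds), grouped by place in the particle; each mark is 1 library. Every circle lies left of its diamond. Gaps are wide in the 2 rings of the core, except for Prosalpha1, and narrower in most of the regulatory particle. On a linear axis the gap depends on level as well as on fold, so Prosalpha1 has a narrow gap despite the largest fold.

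Among the proteolytic subunits, Prosbeta2, which carries the trypsin-like site, stood at 268 and 414 FPKM. It was 1.54-fold lower (1.50 to 1.59), the largest fold in the inner ring. Prosbeta5, the chymotrypsin-like subunit, stood at 197 and 303 FPKM and was likewise 1.54-fold lower (1.49 to 1.59). Prosbeta1, the caspase-like subunit, stood at 204 and 292 FPKM, 1.43-fold lower (1.38 to 1.49). The interval of Prosbeta2 does not reach that of Prosbeta1, and the interval of Prosbeta5 overlaps both.

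The other inner ring genes have no proteolytic site. Prosbeta4 had the highest level of all subunits, 336 and 485 FPKM. Prosbeta7 stood at 282 and 401 FPKM, Prosbeta6 at 256 and 376, and Prosbeta3 at 250 and 369 FPKM. Prosbeta2 ranked second of the 32 in the control and below Prosbeta7 in the library labelled knockdown. The whole inner ring lay in a narrow band of differences, from -0.62 to -0.51, and its levels had a coefficient of variation of 18.5% and 17.6% over the 7 genes.

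In the outer ring, Prosalpha2 was highest, at 275 and 401 FPKM, and 1.46-fold lower (1.41 to 1.51). Prosalpha7 stood at 246 and 363 FPKM, Prosalpha6 at 219 and 294, and Prosalpha4 at 185 and 271 FPKM. Prosalpha5 was at 185 and 265 FPKM and Prosalpha3 at 159 and 219. The median difference of the ring, -0.54, was close to the -0.55 of the inner ring. Prosalpha1 stood apart at 21.8 and 36.4 FPKM, the lowest level of all 32 subunits and the largest difference. It lies on 2R at 7827303 to 7828678 (Release 6, minus strand), close to CG30382 at 7830413 to 7831771, which is known as an almost identical copy, so the division of fragments between them is uncertain. CG30382 stood at 23.4 and 38.5 FPKM. Together the pair reached 45.2 and 74.9 FPKM, 1.66-fold lower (1.54 to 1.78), still below the 159 to 275 and 219 to 401 FPKM of the other 6 outer ring genes.

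Of the 6 base ATPases, 4 were at least 1.2-fold lower (66.7%, against 36.6% of genes at a mean of 100 FPKM or more). Rpt6, the highest, stood at 164 and 198 FPKM (1.21-fold lower, 1.17 to 1.25), and Rpt4 at 155 and 195 FPKM (1.25-fold lower, 1.21 to 1.29). Rpt1 at 143 and 178 FPKM and Rpt2 at 123 and 157 FPKM were 1.25-fold and 1.28-fold lower. The other 2 lay near 0. Rpt3 at 119 and 125 FPKM was 1.05-fold lower (1.00 to 1.09), and Rpt5 at 86.9 and 88.1 FPKM had a fold of 1.01 whose interval (0.97 to 1.06) holds 1. Rpt6 shares 182 exonic bases with CG1801, Rpt2 116 with CG31142 and Rpt4 93 with wuho, each on the opposite strand.

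The remaining base genes ran from -0.20 (Rpn2) to -0.06 (Rpn1), and the counting interval of each ratio lay below 1. Rpn10 and Rpn13, the ubiquitin receptors, had levels of 98.3 and 107 FPKM and of 85.1 and 93.5 FPKM. The large scaffolds Rpn1 and Rpn2, to which shuttle factors and enzymes dock, stood at 60.5 and 63.3 and at 46.1 and 53.2 FPKM. The 4 genes had a median difference of -0.13, and none was 1.2-fold lower.

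In the lid, Rpn12 was the exception in level and in difference. It stood at 240 and 312 FPKM and was 1.30-fold lower (1.26 to 1.35), the only 1 of 8 lid genes past 1.2-fold. Rpn11, the deubiquitinase that cuts the chain from the substrate, stood at 99.4 and 113 FPKM, 1.14-fold lower (1.08 to 1.19). The other 6 lid genes lay between 79.8 (Rpn8) and 109 (Rpn9) FPKM in the library labelled knockdown, and between 90.4 (Rpn8) and 121 FPKM (Rpn6) in the control library. Of these, Rpn7 at 92.6 and 96.2 FPKM had an interval of fold that holds 1 (0.99 to 1.09). Sem1, a small lid subunit whose symbol the rule does not take, stood at 153 and 174 FPKM, a difference of -0.19.

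Transcript length moved with the difference across these libraries. The core genes have a longest transcript of 815 to 1215 nt and the regulatory particle genes one of 995 to 3412 nt, and over the 32 genes length and difference had a Spearman's rho of 0.76. Within the core it was 0.00 over 14 genes and within the regulatory particle 0.20 over 18 genes. All these points share the same 2 libraries. Of the other genes at a mean of 100 FPKM or more with a length in the range of the core, 264 in all, 80.7% were below 0 and 45.1% were at least 1.2-fold lower. Their median was -0.23, with quartiles of -0.38 and -0.07, and 17% of them were at or below -0.42, the highest value of any core gene. With ribosomal protein genes left out, 232 genes remained, of which 78% were below 0, 37.9% were at least 1.2-fold lower and 14.2% were at or below that value.

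With the length trend of all genes removed, the core genes ran from -0.57 to -0.29 (median -0.41) and the regulatory particle genes from -0.27 to 0.06 (median -0.08), and 14 of 18 of the latter were still below 0. Removing a trend in both length and level, a step added after the values were seen, left the core at -0.53 to -0.24 (median -0.34) and the regulatory particle at -0.22 to 0.11 (median -0.03, 13 of 18 below 0). The core and the regulatory particle did not overlap in either form, both on summed transcripts.

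**Figure D2:**
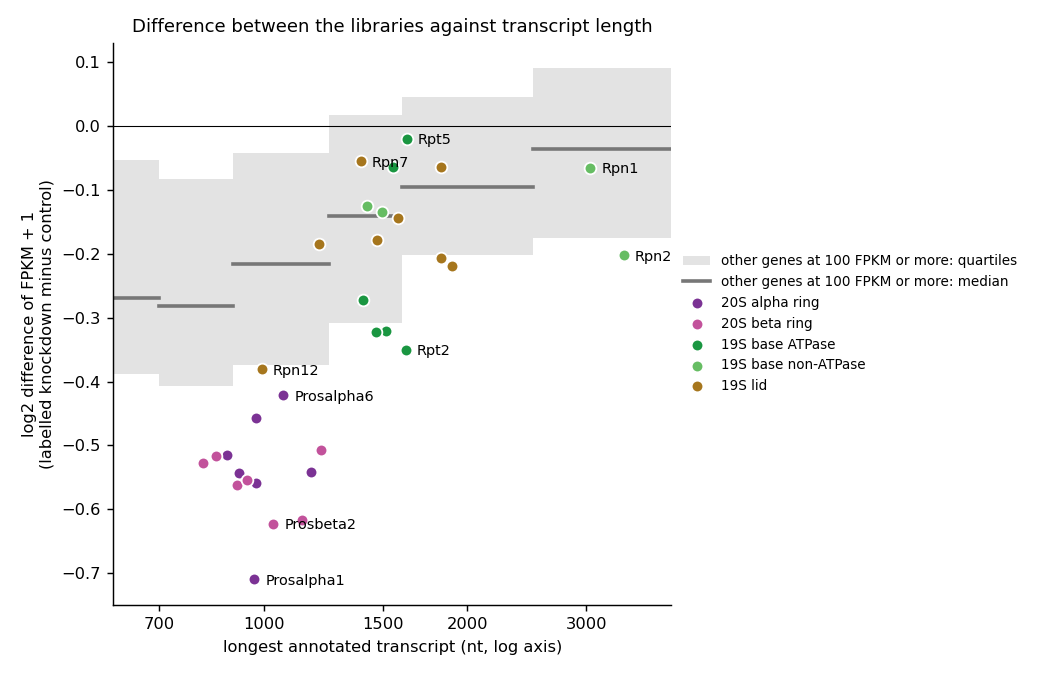
Log2 difference between the libraries (vertical axis, labelled knockdown minus control) against the longest annotated transcript in nt (log axis) for the 32 single-copy subunit genes, coloured by place in the particle; grey boxes and lines are quartiles and medians of other genes at a mean of 100 FPKM or more, per length class. The 14 core genes lie below the grey quartile boxes, between -0.71 and -0.42. Of the regulatory particle genes, Rpt1, Rpt2, Rpt4, Rpn2, Rpn5, Rpn6 and Rpn12 lie below their boxes and the others within them. Prosalpha1 and several regulatory particle genes have means under 100 FPKM, unlike the genes of the boxes.

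The direction of the regulatory particle depends on the scale between libraries, and that of the core was the same on the 3 scales tried. FPKM sums differ between the libraries (1122640 and 1363810), and setting them equal raises every difference by 0.28. Ribosomal protein genes made up 519513 and 704258 FPKM of these sums. On that scale all 14 core genes remained below 0 (median -0.26), while 4 of 18 regulatory particle genes did (median 0.10). The median over all genes was then 0.21. Setting the median ratio of genes that reach 5 FPKM in both to 0, a shift of 0.08, left 14 core and 13 regulatory particle genes below 0. As a share of all FPKM, the core took 0.275% and 0.329%, and the regulatory particle 0.178% and 0.170%.

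Other complexes made from many genes were read the same way. All 13 genes of eIF3, the scaffold of translation initiation, were below 0, with a median of -0.40, and 11 were at least 1.2-fold lower; the highest, Trip1, stood at 483 and 645 FPKM. All 8 genes of the COP9 signalosome, a relative of the lid, were below 0 (median -0.21), and 3 were at least 1.2-fold lower; its highest, CSN8, stood at 133 and 146 FPKM. The CCT chaperonin, which folds actin and tubulin, had 5 of 8 below 0 (median -0.04) and none at 1.2-fold; Cct5 was highest at 225 and 258 FPKM. All 87 ribosomal protein genes tested were below 0, with a median of -0.42; the highest, RpL41, stood at 43092 and 63983 FPKM. The core therefore lay nearest to eIF3 and the ribosomal proteins in size of difference. The core sum was 0.785 times that of eIF3 in the library labelled knockdown and 0.852 times in the control library. Of all tested genes, 56.5% were below 0 and 20.9% at least 1.2-fold lower. Among those at 100 FPKM or more, 36.6% were that much lower, against 37.5% of the COP9 list. With equal FPKM sums, 11 of 13 eIF3, 81 of 88 ribosomal protein, 3 of 8 COP9 and 0 of 8 CCT genes were below 0. The medians were then -0.12, -0.14, 0.07 and 0.24, in that order. No length trend was removed for these lists.

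**Figure D3:**
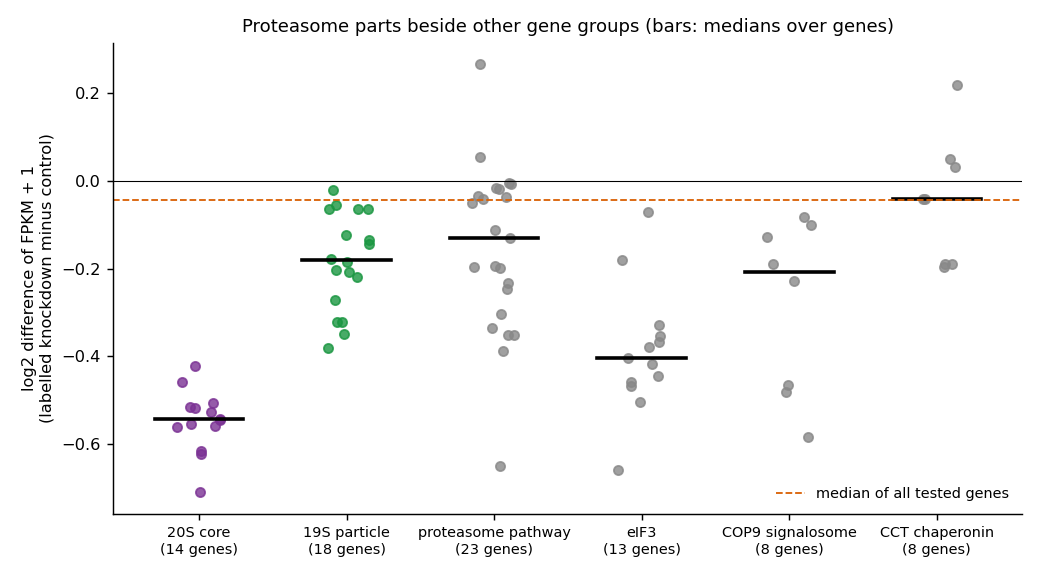
Log2 difference between the libraries (labelled knockdown minus control) for each gene of the core, the regulatory particle, a list of proteasome-related genes and the complexes eIF3, COP9 signalosome and CCT; points are genes, spread sideways for sight, black bars are medians and the dashed line is the median of all tested genes, -0.04. Core points lie between -0.71 and -0.42 and regulatory particle points between -0.38 and -0.02.

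Of 23 genes that assemble, regulate or feed the proteasome, 21 were below 0, with a median of -0.13, and none reached a log2 difference of 1. At least 1.2-fold lower were 6 (26.1%, against 20.9% of all tested genes and 36.6% of those at 100 FPKM or more), and 1 was that much higher, so the list lay near the background in this count. Pomp, the chaperone that matures the core, stood at 107 and 169 FPKM, a difference of -0.65. Among the core genes only Prosalpha1, at -0.71, lay lower, and the rest ran from -0.62 to -0.42. REG, an activator that caps the core in place of the regulatory particle, stood at 187 and 239 FPKM. Usp14, a deubiquitinase bound to the base, stood at 78.9 and 99.8 FPKM, and Rad23, a shuttle that brings ubiquitinated proteins, at 229 and 283 FPKM. RpL40, which encodes ubiquitin fused to a ribosomal protein, stood at 5392 and 7051 FPKM, and the highest gene of the list, RpS27A, at 6786 and 7981. The p97 ATPase TER94 stood at 148 and 152 FPKM.

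The transcription factor Cnc is known in flies and mammals to drive subunit genes when proteasomes are impaired. Its gene cnc stood at 30.0 and 28.9 FPKM, a difference of 0.05. Its partner gene maf-S stood at 149 and 191 FPKM (-0.35) and its inhibitor gene Keap1 at 9.41 and 7.66 FPKM (0.27), the 1 gene of the list that was at least 1.2-fold higher. On the scale of equal FPKM sums, 6 of the 23 were below 0.

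Markers of embryo stage were read beside these levels. Of 9 maternal RNA markers, 6 were below 0 (66.7%, against 56.5% of all tested genes; median -0.19), from -0.54 for bcd to 0.35 for osk, with a summed level of 546 and 608 FPKM and the highest, smg, at 131 and 152. All 8 late embryo markers of muscle and cuticle were above 0 (median 0.27), as were 4598 of the 10576 tested genes. The summed level of these markers was 3887 and 3330 FPKM, with the highest, Mlc2, at 1369 and 1276. Of 4 neuron markers, 3 were above 0 (median 0.30), with sums of 40.5 and 36.3 FPKM and the highest by mean, nSyb, at 17.7 and 14.8. These counts are on the deposited scale, and with equal FPKM sums 8455 of 10729 genes were above 0. None of the maternal, late embryo and neuron lists had a member at 0 in either library. Their part in the result for the core genes was not tested.

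Rpn13 differed little as a gene, and its first exons differed widely. The gene lies on 2R at 13958545 to 13960404 (Release 6, minus strand). Of its 6 annotated transcripts, 2 start with an upstream first exon at 13960319 to 13960404 (86 nt). Their sum was 27.9 and 0.316 FPKM, which is 32.8% and 0.338% of the gene. This first exon was thus nearly all in the library labelled knockdown. The ratio was 88.3 (47.5 to 183), from about 1292 and 10 estimated fragments.

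The 2 transcripts with the first exon at 13960228 to 13960326 (99 nt) moved the other way. They summed to 55.3 and 90.9 FPKM, or 64.9% and 97.2% of the gene, and were 1.64-fold lower (1.56 to 1.73). The remaining start, whose first exon spans 13959568 to 13960208, held 1.92 and 2.32 FPKM. Each first exon is joined to a body with or without the last intron, and the coding length is 389 or 424 codons by that intron and not by the first exon. Transcripts that keep the last intron took 19.2% and 19.7% of the gene. The nearest gene upstream, CtsL1, runs the other way from 13960675. The division of a gene's fragments between its transcripts is an estimate by the authors' software, and the intervals take it as given.

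Of the 2881 genes with several transcripts and at least 20 FPKM in both libraries, 4.1% had a transcript whose share of the gene shifted by at least 20 percentage points. Among the 15 subunit genes in that comparison Rpn13 was the only such case, and the largest shift in any other was 7.9 points, in Rpn2.

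**Figure D4:**
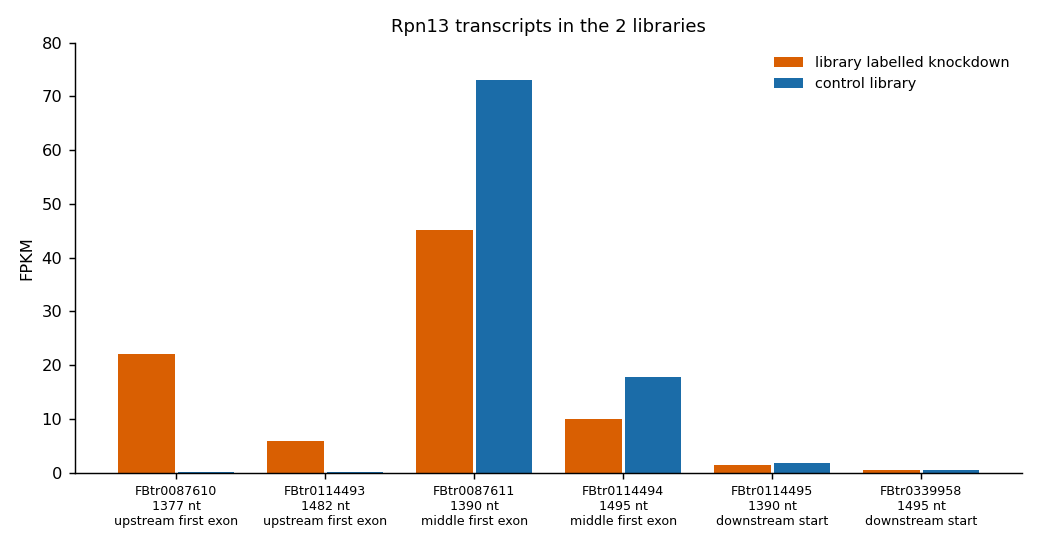
FPKM of the 6 annotated Rpn13 transcripts in the library labelled knockdown and the control library, ordered by first exon with transcript length in nt; each bar is 1 library and carries no error bar. The 2 transcripts with the upstream first exon stand at 22.1 and 5.85 FPKM where the label reads knockdown and at 0.196 and 0.120 FPKM in the control.

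The testis-type paralogs were close to undetectable in both libraries. Of all 17301 genes, 2821 and 2852 were listed at 0. Prosalpha3T was listed at 0 in both, where 3 fragments would be worth 0.110 and 0.156 FPKM. Prosalpha4T1 stood at 0.0305 and 0.0442 FPKM. Prosalpha4T2 had 0.0212 FPKM where the label reads knockdown and was listed at 0 in the control, and Prosalpha6T was listed at 0 and at 0.0747 FPKM. None of the 4 held more than about 2 fragments in a library, so no difference between libraries was detectable at this depth. In sum they held 0.00918% (exact binomial interval 0.00111% to 0.0332%) and 0.0152% (0.00184% to 0.0548%) of the FPKM of their 3 counterparts Prosalpha3, Prosalpha4 and Prosalpha6.

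The 11 paralogs with R in their suffix were low as well. While 10359 and 10301 of all 17301 genes reached 1 FPKM, of the 11 only Rpt3R did. It stood at 0.987 and 1.46 FPKM, on about 46 fragments in each library. Its ratio of 0.678 has an interval (0.436 to 1.03) that holds 1, and it amounted to 0.827% and 1.17% of Rpt3. Rpn13R was listed at 0 in the library labelled knockdown, where 3 fragments are worth 0.0835 FPKM, and stood at 0.331 FPKM on about 8 fragments in the control. Prosbeta2R2 stood at 0.278 and 0.244 FPKM, Rpt4R at 0.209 and 0.199, Rpt6R at 0.146 and 0.162, and Prosbeta5R2 at 0.163 and 0.0798 FPKM. The other 5 lay below 0.15 FPKM in both libraries. All 15 paralogs together amounted to 0.0996% and 0.0998% of their 11 counterparts.

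Single-exon genes were more frequent among the T paralogs than among the single-copy genes. In their most abundant transcript, 3 of 4 T paralogs and 3 of 11 R paralogs consist of 1 exon, against 4 of the 32 single-copy genes. Most R paralogs thus have more than 1 exon, and Rpn12R, with 1 exon, has a counterpart of 1 exon. The 2 paralogs of Prosbeta4 are neighbours on 2L, 1468 bases apart, and Prosbeta4R2 shares 69 exonic bases with Or23a.

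Most testis markers were near 0 as well. Over 24 testis markers the summed level was 50.9 and 52.6 FPKM, of which twe, a Cdc25 phosphatase gene, made up 29.6 and 32.2 and bol 9.99 and 10.4 FPKM. In each library 5 of the 24 reached 1 FPKM, while 10359 and 10301 of all 17301 genes did. The marker aly was listed at 0 in the library labelled knockdown, and Mst84Da, Mst84Dc and Mst84Dd were listed at 0 in the control.

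**Figure D5:**
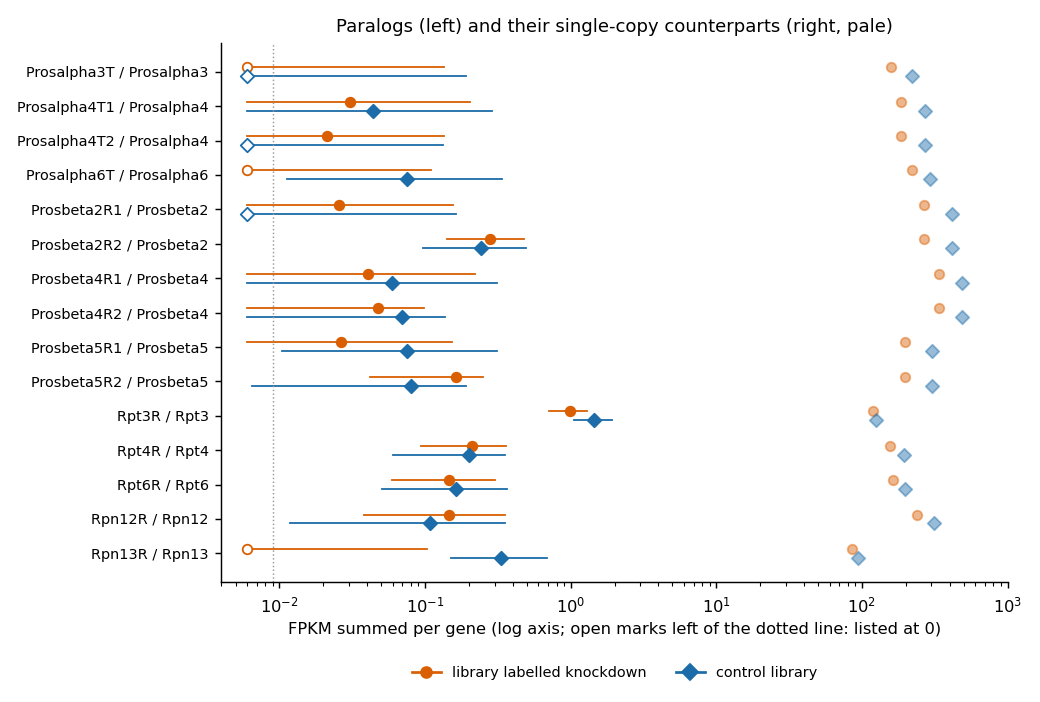
FPKM (log axis) of the 15 paralogs and, pale at right, their single-copy counterparts in the library labelled knockdown (circles) and the control library (diamonds). Lines are exact Poisson 95% intervals on estimated fragments, scaled to the longest annotated transcript of the gene. For Prosbeta4R2 and Prosbeta5R2 the lines lie too low, because all or nearly all FPKM is in a shorter transcript. Open marks left of the dotted line are genes listed at 0. The T paralogs lie below 0.1 FPKM in both libraries and their counterparts between 159 and 294 FPKM.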

How the data were processed

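The deposited values are FPKM per annotated transcript, made by the authors with TopHat and Cuffdiff, per the submitters' processing notes. The sources used here do not give settings, strand handling, build or annotation. Libraries came from a directional kit and fragments of 250 to 400 bp, per the labels' protocols. FPKM was summed per gene. The 365 transcripts without a gene identifier (0.0227% and 0.0246% of FPKM) were left out. Differences are log2 with a pseudocount of 1 FPKM, which understates changes of low genes, and the 10576 genes that reach 1 FPKM in a library were compared. Fragments were estimated from the value of 1 fragment per length class. Transcripts under 400 nt were given the value of the class of 400 to 600 nt. Length trends were fitted by lowess over all genes, or as medians of the 200 genes nearest in length and level. Coordinates and exons are from the Release 6 annotation, by gene identifier; all 47 members matched.

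Named were all members by group, with the highest and lowest, and of the other lists the highest gene and those with a log2 difference of 1 or more; Pomp, REG, Usp14, Rad23, RpL40, TER94, bol, bcd, osk, Acp98AB, Acp95EF, the testis markers listed at 0 and the Cnc genes were named after their values were seen. The rule for members and the lists were chosen with earlier results of these data known. Python 3.11.15, pandas 2.3.3, scipy 1.17.1 and statsmodels 0.14.6 were used. The value of 1 fragment, the limit of a log2 difference of 1 and the length trend were tested on simulated data. The folds planted there were larger than those of the subunit genes, and the other steps were not tested in this way.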

Additional observations from a re-analysis of the deposited data

How the results depend on the processing

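With another pseudocount (0.1 or 5 FPKM), another filter or none, the median of the 32 single-copy genes was -0.34 to -0.33 and all 32 were below 0. These settings could not change that count. All 32 genes stood above 5 FPKM in both libraries, and a pseudocount does not change the sign of a difference. Setting FPKM sums equal moved the median from -0.34 to -0.057, the number below 0 from 32 to 18, and the log2 ratio of the summed levels from -0.42 to -0.14. Setting the median ratio of genes that reach 5 FPKM in both to 0 gave -0.34 for that sum, and the most abundant transcript alone gave -0.44, with Rpn13 at -0.68. Removing a trend in length and level, added after the values were seen, moved the median to -0.18. Counting R paralogs with T paralogs raised their share of the counterparts to 0.0996% (labelled knockdown) and 0.0998% (control). The sign changed for 14 of 33 members with equal sums, 5 with that median at 0 and 4 without the length trend. No paired analysis was possible because each group has 1 library, and for that reason no library could be left out. Depth limits the T paralogs, whose values rest on about 2 fragments or fewer.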

Other observations

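Some stress chaperone and accessory gland genes had log2 differences past 1, which 2.39% of all tested genes had and no subunit gene did. Of 13 stress chaperone genes 10 reached 1 FPKM, and 9 of these were above 0 (median 0.40), as were 4598 of the 10576 tested genes. A log2 difference over 1 was found for 3. Hsp70Bb stood at 5.35 FPKM (labelled knockdown) and 0.281 FPKM (control), Hsp68 at 9.53 and 2.12, and Hsp70Bc at 2.36 and 0.350 FPKM. The Hsp70 genes are near-identical copies, so values of single copies are uncertain. The highest, Hsp83, stood at 441 and 400 FPKM. Markers of the male accessory gland, 14 genes, summed to 132 and 106 FPKM, most of it in Mst57Db (56.4 and 51.9 FPKM), Acp98AB and Acp95EF, all with transcripts under 250 nt. Of this list SP (5.71 and 1.37 FPKM) was past the limit upwards and Mst57Dc (0.385 and 1.93 FPKM) downwards. SP rests on about 29.2 and 4.83 estimated fragments and Mst57Dc on about 3.34 and 11.5. These counts are rough, because the 2 transcripts (223 and 378 nt) are shorter than any length class used for the estimate.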
